A study of Mus musculus with 2 samples.

Results

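The expression of 10 genes of the serotonin system was followed in the midbrain of the mouse embryo. They cover synthesis (Tph1, Tph2), the transcription factor Fev, uptake (Slc6a4), breakdown (Maoa, Maob) and receptors (Htr1a, Htr1b, Htr2c, Htr3a). The 10 genes were chosen by name from the 43346 Ensembl gene rows of each deposited table, and all 10 were found. The data are total RNA-seq of 2 libraries of B6NCrl midbrain at 14.5 days of embryonic development, with no treatment and no other group. Each library came from the midbrain of 1 pup, and the collection dates differ. The libraries are called embryo 1 and embryo 2, which are biological replicates per the labels. The labels also give the sex as pooled, which does not match a single pup: Xist, the RNA of the inactive X chromosome, stood at 0.01 TPM in embryo 1 and 62.0 TPM in embryo 2, and the Y-linked Eif2s3y at 73.0 TPM in embryo 1 and 0 in embryo 2. TPM is the authors' level of a gene corrected for its length, so that levels of different genes can be compared.

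Serotonin is made from tryptophan, first by a tryptophan hydroxylase (Tph1 or Tph2) and then by the decarboxylase Ddc, and is packed into vesicles by Slc18a2. After release it acts on a large family of receptors, is taken back by the transporter Slc6a4 and is degraded by the monoamine oxidases. In the brain the neurons that make it lie in the raphe nuclei, whose rostral groups reach from the front of the hindbrain into the midbrain, and their axons spread through the brain before birth.

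The expected counts summed to 32716141 in embryo 1 and 30185472 in embryo 2, with spike-in RNAs at 3.15% and 3.32% of them. The tissue label was checked against regional genes: Otx2, a homeobox gene of forebrain and midbrain, stood at 99.9 TPM in embryo 1 and 76.3 TPM in embryo 2, and En1, of midbrain and anterior hindbrain, at 13.5 and 14.3 TPM. Of the genes that mark the hindbrain segments, Hoxb1, Hoxa3, Hoxb3 and Hoxb4 had 0 counts in both embryos. The embryos differed in connective tissue: the summed level of the 4 mesenchyme markers Col1a1, Col3a1, Dcn and Lum was 322 TPM in embryo 1 and 4.66 TPM in embryo 2.

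Promoter windows were taken from RefSeq on GRCm38.p6 for the genes on which the comparison of levels turns, namely both hydroxylase genes, which serve the same step at very different levels, and Fev and Slc6a4, which with Tph2 define serotonergic neurons. Each window runs from 250 bases before to 50 bases after a start, and Tph1 has 2 windows in the table. Capitals mark GGAA or its reverse complement TTCC, the core that ETS factors such as Fev bind.
Tph2 (chr10:115184973-115185272, minus strand): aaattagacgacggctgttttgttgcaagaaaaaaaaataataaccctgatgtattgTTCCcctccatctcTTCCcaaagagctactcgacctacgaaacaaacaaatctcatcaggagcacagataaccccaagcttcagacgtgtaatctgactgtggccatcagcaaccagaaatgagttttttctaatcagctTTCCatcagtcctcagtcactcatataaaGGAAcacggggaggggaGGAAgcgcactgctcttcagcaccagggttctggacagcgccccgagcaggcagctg
Tph1 window 1 (chr7:46672488-46672787, minus strand): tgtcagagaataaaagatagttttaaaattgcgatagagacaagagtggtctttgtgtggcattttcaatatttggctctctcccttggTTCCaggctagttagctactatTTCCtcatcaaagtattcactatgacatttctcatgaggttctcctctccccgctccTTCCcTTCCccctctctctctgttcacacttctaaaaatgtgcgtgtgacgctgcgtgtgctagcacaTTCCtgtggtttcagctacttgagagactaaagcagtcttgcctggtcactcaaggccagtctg
Tph1 window 2 (chr7:46667328-46667627, minus strand): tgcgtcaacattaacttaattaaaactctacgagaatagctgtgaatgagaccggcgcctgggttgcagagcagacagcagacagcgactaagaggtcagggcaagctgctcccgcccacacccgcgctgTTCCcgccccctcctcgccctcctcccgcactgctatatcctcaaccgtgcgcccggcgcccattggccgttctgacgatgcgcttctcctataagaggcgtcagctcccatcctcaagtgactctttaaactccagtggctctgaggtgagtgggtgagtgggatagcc
Fev (chr1:74885359-74885658, minus strand): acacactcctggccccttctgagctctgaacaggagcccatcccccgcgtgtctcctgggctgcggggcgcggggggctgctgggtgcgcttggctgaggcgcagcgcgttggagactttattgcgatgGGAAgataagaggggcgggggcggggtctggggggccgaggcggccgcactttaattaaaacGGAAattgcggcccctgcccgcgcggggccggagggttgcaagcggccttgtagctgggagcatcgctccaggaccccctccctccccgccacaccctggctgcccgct
Slc6a4 (chr11:76998347-76998646, plus strand): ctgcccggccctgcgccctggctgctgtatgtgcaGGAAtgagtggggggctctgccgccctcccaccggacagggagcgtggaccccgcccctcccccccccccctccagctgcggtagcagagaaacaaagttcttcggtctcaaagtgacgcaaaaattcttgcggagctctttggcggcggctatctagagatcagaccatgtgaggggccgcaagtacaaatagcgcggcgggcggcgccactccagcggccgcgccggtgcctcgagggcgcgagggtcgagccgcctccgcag

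The ETS core occurred 5 times in the Tph2 window, 5 times in Tph1 window 1, 1 time in Tph1 window 2, 2 times in the Fev window and 1 time in the Slc6a4 window. It is a very common word: 96.0% of 32841 promoter windows of the same length hold at least 1, with a median of 3. The longer word CCGGAA, found in 14.9% of all windows, was absent from all 9 windows available for 8 of the 10 genes. The GATA factor word GATAA occurred once each in the windows of Tph2, Fev and Maoa, against 25.4% of all windows. The TATA box word TATAAA occurred in the Tph2 window and in none of the other 8, against 13.6% of all windows. Both strands were searched, no match of one of these words overlapped a match of another in the 9 windows, and a match describes letters only, not a bound site.

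A gene is called detected here when each embryo shows 1 TPM or more. By that rule 8 of the 10 genes were detected, and the exceptions were Tph1 and Htr3a. All 10 are protein-coding, and the same level was reached by 33.6% of all Ensembl genes and by 59.5% of protein-coding genes. The median of the 10 mean levels was 2.40 TPM, against 4.67 TPM over all 21473 named protein-coding genes and 20.3 TPM over those detected. In whole tissue, fewer cells of a type and less RNA per cell cannot be told apart.

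**Figure D1:**
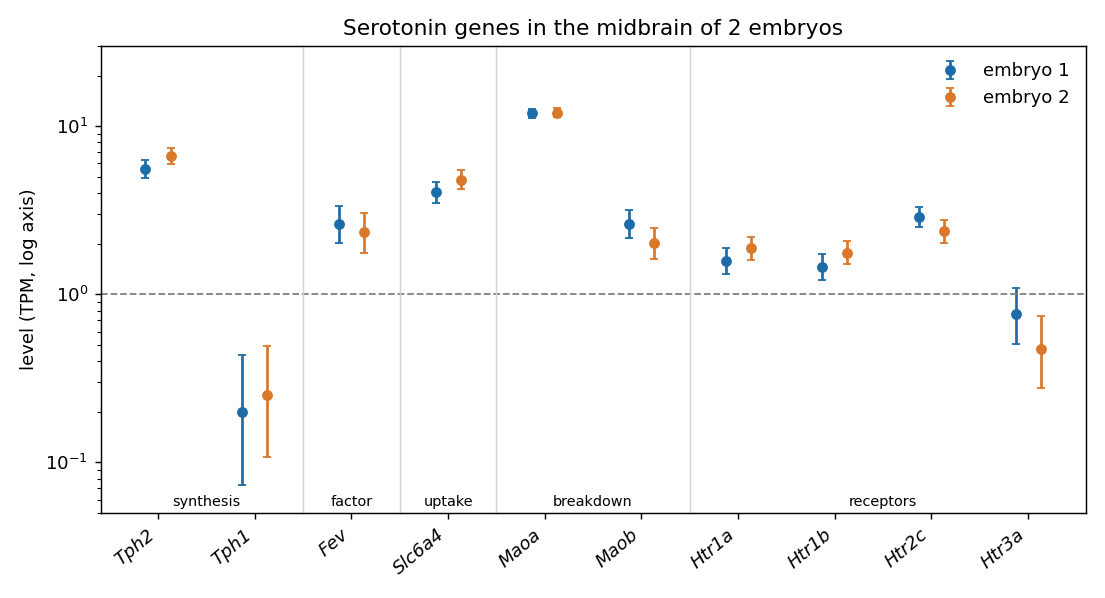
Level of each serotonin gene in embryo 1 (blue) and embryo 2 (orange), in TPM on a log axis, grouped by role; bars are 95% Poisson intervals of the counts and the dashed line is a TPM of 1. Maoa is highest, at 11.9 TPM in embryo 1 and 12.0 TPM in embryo 2, and Tph1 and Htr3a are the genes below the line in both embryos.

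Tph2, the hydroxylase of neurons, was the second most abundant of the 10 genes. It had 5.58 TPM in embryo 1 (95% Poisson interval 4.93 to 6.29) and 6.68 TPM in embryo 2 (5.97 to 7.45), from 270 and 323 counts. Embryo 1 had the lower level, and the mean of both was 6.13 ± 0.778 TPM (SD, n = 2). This was above 53.0% of protein-coding genes but above only 21.1% of those detected. The gene lies on chromosome 10 (115078641 to 115185022, minus strand, GRCm38), and all of its counts went to the full-length protein-coding transcript Tph2-201.

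Tph1, which catalyses the same step in the gut and the pineal gland, was close to the limit of these libraries. It had 6 counts in embryo 1 and 8 in embryo 2, which gave 0.20 TPM (0.0734 to 0.435) and 0.25 TPM (0.108 to 0.493), where 3 counts amount to 0.102 and 0.0943 TPM. Tph2 was thus 27.9-fold above Tph1 in embryo 1 (95% counting interval 12.7 to 76.7) and 26.7-fold above it in embryo 2 (13.4 to 62.4). The direction was the same with the authors' posterior mean TPM, another estimate in the same tables, but Tph1 then stood at 0.79 and 0.81 TPM and the gap was 7.22-fold and 8.36-fold. Tph1 lies on chromosome 7 (46644641 to 46672537, minus strand), and 3 of its 8 annotated transcripts received any counts.

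Cells outside the brain parenchyma that use Tph1 were looked for by their own genes. None of 7 mast cell markers was detected, their summed level was 1.10 TPM in embryo 1 and 0.59 TPM in embryo 2, and Mcpt4 and Fcer1a had 0 counts in both. Among 6 pineal markers 2 were detected, with a sum of 3.66 TPM in embryo 1 and 4.39 TPM in embryo 2. Asmt, the last enzyme of melatonin synthesis, had 0 counts in both embryos.

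Fev, an ETS transcription factor that raphe neurons need to become serotonergic, was detected at a low level. It had 2.62 TPM in embryo 1 (2.02 to 3.35) and 2.33 TPM in embryo 2 (1.76 to 3.03), from 64 and 55 counts, a mean of 2.48 ± 0.205 TPM (SD, n = 2). The intervals of the 2 embryos overlapped widely. Tph2 was 2.13-fold above Fev in embryo 1 (1.62 to 2.84) and 2.87-fold above it in embryo 2 (2.15 to 3.89). The gene spans 74881509 to 74885419 on chromosome 1 (minus strand). The coding transcript Fev-201 made up 88.5% of its transcript TPM in embryo 1 and 85.0% in embryo 2, and the short retained-intron transcript Fev-203 held 11.5% and 15.0% on 2.06 and 2.39 counts.

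Slc6a4, the plasma membrane transporter that takes serotonin back into the neuron and the target of many antidepressants, stood at 4.05 TPM in embryo 1 (3.51 to 4.65) and 4.81 TPM in embryo 2 (4.22 to 5.46), from 203 and 240 counts. Its mean was 4.43 ± 0.537 TPM (SD, n = 2), and Tph2 exceeded it by 1.38-fold in embryo 1 (1.14 to 1.66) and 1.39-fold in embryo 2 (1.17 to 1.65). The ratio of these 2 genes was therefore nearly the same in each embryo. Slc6a4 lies on chromosome 11 (76998603 to 77032340, plus strand) and 98.5% of its transcript TPM in embryo 1 and 97.5% in embryo 2 went to Slc6a4-201.

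Slc6a4 is also used by platelets and, for a time before birth, by sensory neurons of the thalamus. Of 5 platelet and megakaryocyte markers 3 were detected, with a sum of 52.2 TPM in embryo 1 and 22.4 TPM in embryo 2. The platelet chemokine gene Pf4 made up 32.5 TPM of this sum in embryo 1 and 2.26 TPM in embryo 2, while Gp1bb stood at 13.9 and 13.4 TPM and Itga2b at 4.37 and 6.01 TPM. The other markers were not detected: Ppbp had 0.80 and 0.21 TPM on 15 and 4 counts, and Gp9 0.59 and 0.51 TPM on 8 and 7 counts. All 6 thalamic markers were detected, with sums of 813 TPM in embryo 1 and 730 TPM in embryo 2. Tcf7l2 made up 607 and 555 TPM of these sums, and Gbx2 only 9.91 and 9.18 TPM. Both libraries are midbrain, so the sums cannot tell thalamic cells from midbrain cells that express the same genes. The part of either cell type in the level of Slc6a4 was not tested.

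The monoamine oxidases sit in the outer mitochondrial membrane and remove the amine group of serotonin and other monoamines. Maoa, the form with the higher affinity for serotonin, was the most abundant of the 10 genes, at 11.9 TPM in embryo 1 (11.2 to 12.7) and 12.0 TPM in embryo 2 (11.3 to 12.8), on 927 and 935 counts. Its mean was 12.0 ± 0.0849 TPM (SD, n = 2), above 61.5% of protein-coding genes and 35.5% of those detected. Maob, the form known in serotonergic neurons and astrocytes, had 2.62 TPM in embryo 1 (2.15 to 3.16) and 2.01 TPM in embryo 2 (1.61 to 2.47), a mean of 2.32 ± 0.431 TPM (SD, n = 2).

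Maoa exceeded Maob by 4.54-fold in embryo 1 (3.72 to 5.59) and by 5.98-fold in embryo 2 (4.81 to 7.52). The 2 genes are neighbours on chromosome X with their ends facing each other: Maoa spans 16619698 to 16687818 on the plus strand and Maob 16709282 to 16817366 on the minus strand, with 21463 bases between them. No other annotated gene overlaps either. Both oxidases also act on dopamine and noradrenaline, and markers of dopaminergic neurons were detected in 7 of 7 cases, with sums of 99.98 TPM in embryo 1 and 94.4 TPM in embryo 2. Noradrenergic markers were detected in 4 of 5 cases, with sums of 27.4 TPM in embryo 1 and 37.3 TPM in embryo 2, of which Th, which dopaminergic neurons share, made up 20.9 and 26.8 TPM. Radial glia and astrocyte markers were detected in 4 of 6 cases with sums of 1466 and 1724 TPM, and Gfap, an intermediate filament of astrocytes, had 10 counts in embryo 1 against 0 in embryo 2.

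Among the 4 receptor genes of the set, Htr2c was the most abundant. This receptor couples to phospholipase C, and its RNA is edited by adenosine deaminases. It had 2.89 TPM in embryo 1 (2.52 to 3.31) and 2.38 TPM in embryo 2 (2.03 to 2.77), from 213 and 165 counts, with a mean of 2.64 ± 0.361 TPM (SD, n = 2). Htr2c spans 146962513 to 147197277 on chromosome X (plus strand) and hosts several small RNA genes in its introns, all listed at 0. The libraries were made from RNA above 200 nt, so these values cannot show whether shorter RNAs were present.

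The counts of Htr2c were divided among 5 of its 7 annotated transcripts. The coding Htr2c-201 held 70.6% of the transcript TPM in embryo 1 and 70.9% in embryo 2. The processed transcript Htr2c-205 held 12.5% and 21.5% on 3.76 and 5.36 counts, and the retained-intron transcript Htr2c-206 held 14.9% in embryo 1 on 23.8 counts and 4.22% in embryo 2 on 5.48 counts. With the posterior mean TPM the share of Htr2c-201 fell to 38.1% in embryo 1 and 48.3% in embryo 2, so the division among its transcripts depends on the estimate.

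Htr2c is known for its high level in the choroid plexus. Choroid plexus markers were detected in 2 of 7 cases, with sums of 207 TPM in embryo 1 and 83.0 TPM in embryo 2, of which Otx2, which the midbrain also expresses, made up 99.9 and 76.3 TPM. Ttr, the most abundant marker of that epithelium, stood at 96.3 TPM in embryo 1 and 0.37 TPM in embryo 2. In the same order, Kcne2 had 2.40 and 0.41 TPM, Aqp1 1.03 and 0.17 TPM and Clic6 0.73 and 0.03 TPM. Folr1 had 6.24 and 5.22 TPM and Kl 0.61 and 0.42 TPM. The part of the choroid plexus in the level of Htr2c was not tested.

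Htr1a and Htr1b, inhibitory receptors that serve as autoreceptors on the cell bodies and on the axon ends of serotonergic neurons, had nearly equal levels. Htr1a stood at 1.58 TPM in embryo 1 (1.32 to 1.88) and 1.88 TPM in embryo 2 (1.60 to 2.20), a mean of 1.73 ± 0.212 TPM (SD, n = 2), and Htr1b at 1.45 TPM in embryo 1 (1.21 to 1.72) and 1.77 TPM in embryo 2 (1.504 to 2.07), a mean of 1.61 ± 0.226 TPM (SD, n = 2). The ratio of Htr1a to Htr1b was 1.09 in embryo 1 (0.848 to 1.40) and 1.06 in embryo 2 (0.846 to 1.33), so a difference was not detectable at this depth. Both receptors are also made by many neurons that receive serotonin.

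Htr1a lies on chromosome 13 (105443639 to 105448122, plus strand) with no overlapping gene. Htr1b lies on chromosome 9 (81628291 to 81633828, minus strand), and its exons overlap those of D430036J16Rik, an antisense gene on the opposite strand. That gene had 134.8 counts and 5.96 TPM in embryo 1 and 179.1 counts and 7.21 TPM in embryo 2. No source used here gives the strand setting of the counting, so reads of the shared exons cannot be told apart and the level of Htr1b is uncertain for this reason.

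Htr3a encodes a subunit of the only serotonin receptor that is an ion channel, which in the cortex marks a class of interneurons. It had 0.76 TPM in embryo 1 (0.509 to 1.09) and 0.47 TPM in embryo 2 (0.279 to 0.743), from 29 and 18 counts, a mean of 0.615 ± 0.205 TPM (SD, n = 2). The intervals overlapped, and Htr2c exceeded Htr3a by 3.80-fold in embryo 1 (2.57 to 5.82) and 5.06-fold in embryo 2 (3.11 to 8.76). Htr3a spans 48899213 to 48911099 on chromosome 9 (minus strand), and its partner subunit Htr3b had 1 count in embryo 1 and 5 in embryo 2.

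By mean level the 10 genes ran in the order Maoa, Tph2, Slc6a4, Htr2c, Fev, Maob, Htr1a, Htr1b, Htr3a and Tph1. The values of the 2 embryos overlapped between neighbours in this order for Htr2c and Fev, for Fev and Maob, and for Htr1a and Htr1b, so these neighbours do not differ beyond their spread. The remaining neighbours did not overlap. With the posterior mean TPM, Htr1b at 1.74 TPM came above Htr1a at 1.69 TPM, and Tph1 at 0.80 TPM came above Htr3a at 0.63 TPM.

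The 10 genes varied between the embryos about as much as other genes with similar counts. Counts were scaled by TMM, a method that sets most genes at a ratio near 1, and ratios are embryo 1 over embryo 2. Among the 8 genes with at least 100 summed counts 0 passed 1.5-fold and 0 passed 2-fold, and of all 14011 genes with that many counts 14.3% and 4.85% did. Of the 6780 genes with 119 to 1862 counts, the range of these 8, 21.7% passed 1.5-fold. The ratios of these 8 ran from 0.737 for Htr1b to 1.16 for Htr2c, and their median absolute log2 ratio was 0.30, against 0.29 over the 6780 genes and 0.23 over all 14011. Tph1 and Htr3a, with fewer counts, had ratios of 0.677 (0.194 to 2.23) and 1.45 (0.781 to 2.78). Scaled by spike-ins, Htr3a stood at 1.57, and its ratio of TPM was 1.62. With 2 replicates of 1 condition there is no contrast to test, so no p-value is given and the intervals cover counting error at most.

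**Figure D2:**
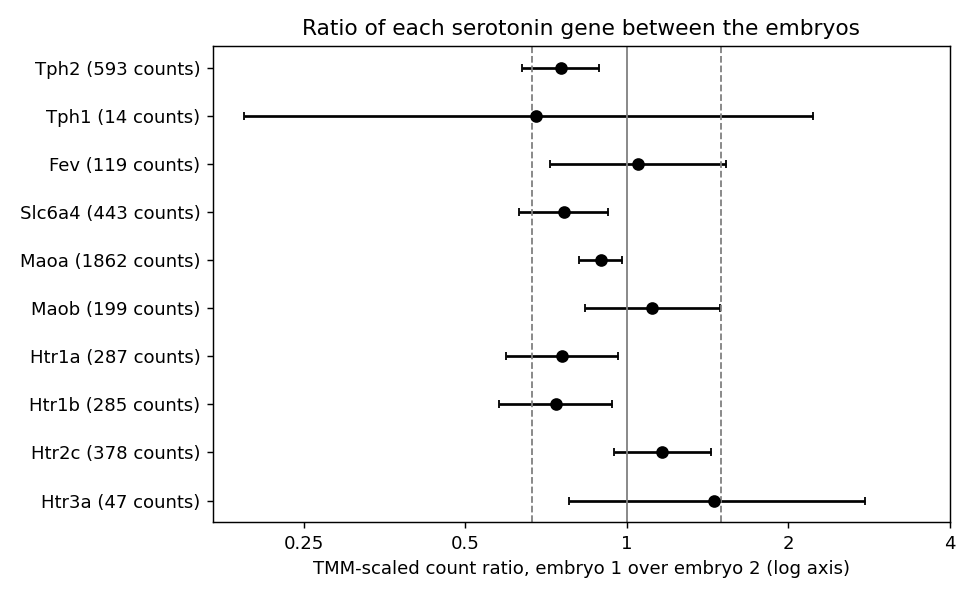
Ratio of TMM-scaled counts, embryo 1 over embryo 2, of each serotonin gene on a log axis; bars are 95% counting intervals, the solid line is a ratio of 1, the dashed lines are 1.5-fold either way, and summed counts stand beside each name. Every point lies between the dashed lines, and the intervals of Tph1 (14 counts) and Htr3a (47 counts) are the widest.

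Among the 8 genes, 5 were lower in embryo 1, and 50.6% of all 14011 genes were. Tph2 had a ratio of 0.755 (95% counting interval 0.640 to 0.890), Slc6a4 of 0.763 (0.630 to 0.924), Htr1a of 0.758 (0.596 to 0.962) and Htr1b of 0.737 (0.579 to 0.937), all with intervals below 1. Maoa had a ratio of 0.895 (0.816 to 0.981). The scaling decides most of these: of the 5 genes, Tph2 alone kept an interval below 1 under all 4 scalings tried, at 0.815 (0.691 to 0.961) by spike-ins and 0.835 (0.708 to 0.985) as a ratio of TPM. By spike-ins the upper limit was 1.04 for Htr1a, 1.01 for Htr1b and 1.06 for Maoa, and as a ratio of TPM it was 1.02 for Slc6a4. Spike-in totals put the median log2 ratio of 14000 genes at 0.11 and the ratio of TPM at 0.13, against -0.01 with TMM. With TMM the intervals of Fev at 1.05 (0.721 to 1.53), Maob at 1.12 (0.836 to 1.49) and Htr2c at 1.16 (0.946 to 1.44) included 1. By spike-ins Htr2c stood at 1.26 (1.02 to 1.55), an interval above 1. These intervals leave out the variation between animals. The coefficient of variation between the embryos over 18910 genes was 26.7%, from TMM-scaled counts with counting error taken out. The SD of the 10 genes ran from 0.709% of the mean for Maoa to 33.3% for Htr3a. This SD is of TPM and includes counting error, so the 2 measures are not directly comparable.

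The 3 genes on chromosome X, Maoa, Maob and Htr2c, had ratios of 0.895 to 1.16 between an embryo with Y-linked RNA and an embryo with Xist. Noradrenergic markers stood beside the genes that were lower in embryo 1: Dbh, which makes noradrenaline, had 2.17 TPM in embryo 1 and 4.27 TPM in embryo 2, a ratio of 0.517 (0.401 to 0.663), and the transporter Slc6a2 had 1.92 and 2.97 TPM, a ratio of 0.586 (0.492 to 0.696). The floor plate factor Foxa2 had 4.11 TPM in embryo 1 and 6.35 TPM in embryo 2, a ratio of 0.604 (0.490 to 0.743). Other genes went the opposite way: of 10 serotonergic neuron markers, some of them members, 5 were lower and 5 higher in embryo 1. Their median log2 ratio was 0.00152. Gata2 at 1.315 (1.18 to 1.47), Gata3 at 1.27 (1.22 to 1.33) and Slc18a2 at 1.13 (1.04 to 1.23) had intervals above 1. The part of noradrenergic or floor plate cells in the ratios was not tested. Dbh, Slc6a2, Foxa2, Gata2, Gata3 and Slc18a2 were named here after their values were seen.

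The other 10 serotonin receptor genes put the 4 of the set in context. Of all 14 receptor genes 7 were detected, among them 3 of the 4 in the set. The 4 genes held 38.0% of the summed receptor level of 17.6 TPM in embryo 1 and 34.1% of 19.1 TPM in embryo 2. The most abundant was Htr7, a receptor that raises cyclic AMP, at 3.99 TPM in embryo 1 and 4.37 TPM in embryo 2, a mean of 4.18 ± 0.269 TPM (SD, n = 2).

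Htr7 took 22.7% of the receptor level in embryo 1 and 22.9% in embryo 2, Htr2c took 16.5% and 12.5%, and Htr2a took 14.3% and 8.49%. Htr2a, the cortical target of psychedelic drugs, stood at 2.51 TPM in embryo 1 and 1.62 TPM in embryo 2, so that it overlapped Htr1a and Htr1b in level. Htr5b, which is functional in rodents, had 1.08 and 1.57 TPM. The median over the other 10 receptor genes was 0.975 TPM, and Htr6, Htr2b, Htr1f and Htr3b, named after their values were seen, had means between 0.065 and 0.35 TPM.

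**Figure D3:**
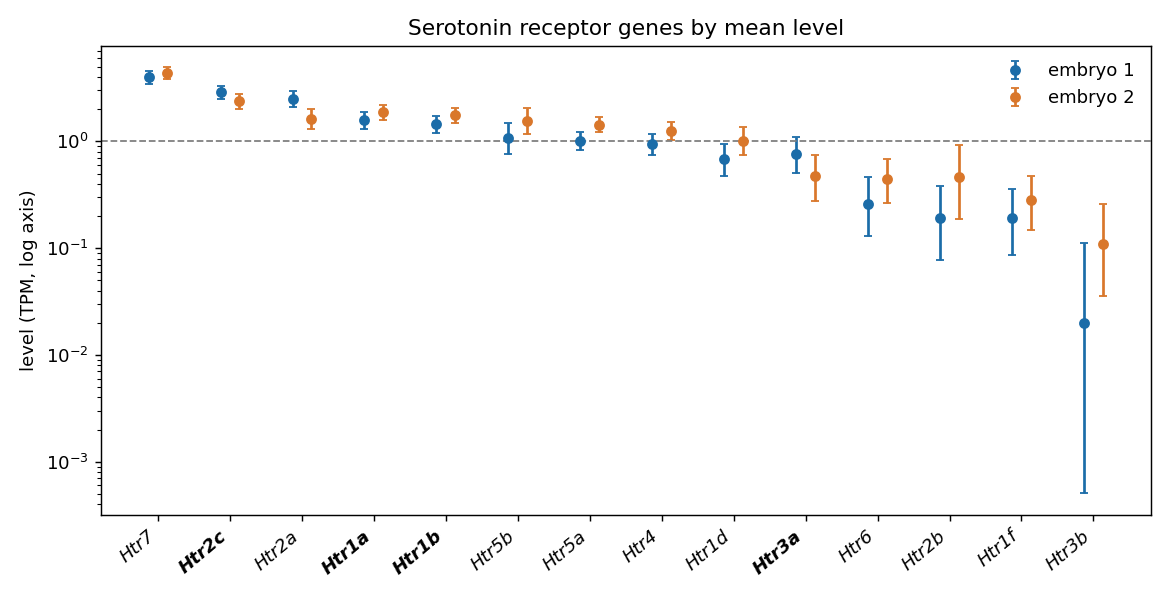
Level of the 14 serotonin receptor genes in embryo 1 (blue) and embryo 2 (orange), in TPM on a log axis and in order of their mean, with 95% Poisson intervals; bold names are Htr2c, Htr1a, Htr1b and Htr3a and the dashed line is a TPM of 1. Levels run from 3.99 and 4.37 TPM for Htr7 down to 0.02 and 0.11 TPM for Htr3b.

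The enzymes and transporters that serotonergic neurons share with other cells had a higher median level than the 10 genes. Of 9 genes for decarboxylation, cofactor supply and vesicle storage 8 were detected, with a median of 19.9 TPM, against a median of 2.40 TPM for the 10 genes and 20.3 TPM for all detected protein-coding genes. Qdpr, which recycles the tetrahydrobiopterin cofactor of the hydroxylases, stood at 70.1 ± 5.70 TPM (SD, n = 2), the cofactor synthesis enzyme Pts at 64.0 ± 0.354 TPM and the recycling enzyme Pcbd1 at 35.7 ± 6.03 TPM. Ddc exceeded Tph2 by 3.71-fold in embryo 1 (3.21 to 4.29) and 2.86-fold in embryo 2 (2.496 to 3.28), and Slc18a2 exceeded Slc6a4 by 4.501-fold (3.88 to 5.25) and 3.03-fold (2.64 to 3.51). Both genes are shared with dopaminergic and noradrenergic neurons.

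The catecholamine genes gave a scale for the serotonergic ones. Tph2 was below Th, the tyrosine hydroxylase of dopamine and noradrenaline synthesis, which exceeded it by 3.74-fold in embryo 1 (3.25 to 4.32) and 4.004-fold in embryo 2 (3.52 to 4.56). Slc6a4 stood at 0.618 of the level of the dopamine transporter gene Slc6a3 in embryo 1 (0.520 to 0.733) and 0.723 in embryo 2 (0.615 to 0.849). It exceeded the noradrenaline transporter gene Slc6a2 by 2.11-fold in embryo 1 (1.73 to 2.56) and 1.62-fold in embryo 2 (1.37 to 1.92).

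All 10 transcription factors that act in the making of serotonergic neurons were detected, with a median of 5.29 TPM. Gata3 led at 97.0 TPM in embryo 1 and 69.2 TPM in embryo 2, and En1 stood at 13.5 TPM in embryo 1 and 14.3 TPM in embryo 2. Both also act in other cells of the midbrain, Gata3 in GABAergic neurons and En1 in dopaminergic neurons, so their levels do not measure the serotonergic lineage. Foxa2 passed 1.5-fold between the embryos under all 4 scalings.

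Uptake of serotonin by other carriers was led by Slc29a4, the plasma membrane monoamine transporter, at 66.5 TPM in embryo 1 and 61.0 TPM in embryo 2. The median of its list of 6 was 1.52 TPM with 3 detected, and the other 2 detected were Slc6a3 at 6.60 ± 0.0707 TPM and Slc6a2 at 2.45 ± 0.743 TPM (SD, n = 2). The parts of the tryptophan carrier, Slc3a2 at 72.0 ± 1.92 TPM and Slc7a5 at 38.2 ± 7.49 TPM, were abundant, and Slc7a8 stood at 4.88 ± 1.14 TPM (SD, n = 2). None of Tdo2, Ido1 and Ido2, enzymes that draw tryptophan into the kynurenine pathway, was detected.

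Downstream of monoamine oxidase, the aldehyde reductase genes Akr1a1 at 515 ± 23.2 TPM and Akr1b3 at 78.6 ± 7.47 TPM and the aldehyde dehydrogenase gene Aldh2 at 27.8 ± 7.74 TPM (SD, n = 2) led a list in which 4 of 8 were detected. Aldh2 had 22.3 TPM in embryo 1 and 33.3 TPM in embryo 2, and it passed 1.5-fold in scaled counts, with a ratio of 0.599 (0.551 to 0.652), but not as a ratio of TPM, at 0.671. Asmt and Inmt, which methylate serotonin products and tryptamine, had 0 counts in both embryos. The 95% Poisson interval of their 0 counts reached 0.176 TPM in embryo 1 and 0.177 TPM in embryo 2 for Asmt, and 0.214 and 0.215 TPM for Inmt.

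All 8 receptor partners and RNA editing enzymes were detected, with a median of 26.6 TPM. Tmem35a, an assembly chaperone of ligand-gated channels, stood at 72.6 ± 1.70 TPM, S100a10, an adaptor of Htr1b, at 61.4 ± 11.7 TPM and the scaffold gene Dlg4 at 27.2 ± 3.41 TPM (SD, n = 2). Adarb1, an enzyme that edits Htr2c RNA, had 9.66 TPM in embryo 1 and 11.2 TPM in embryo 2. Dlg4 passed 1.5-fold with TMM alone, at 0.663 (0.610 to 0.722), and stood at 0.837 as a ratio of TPM, where Mpdz, another scaffold gene, passed at 1.67 (1.53 to 1.82).

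**Figure D4:**
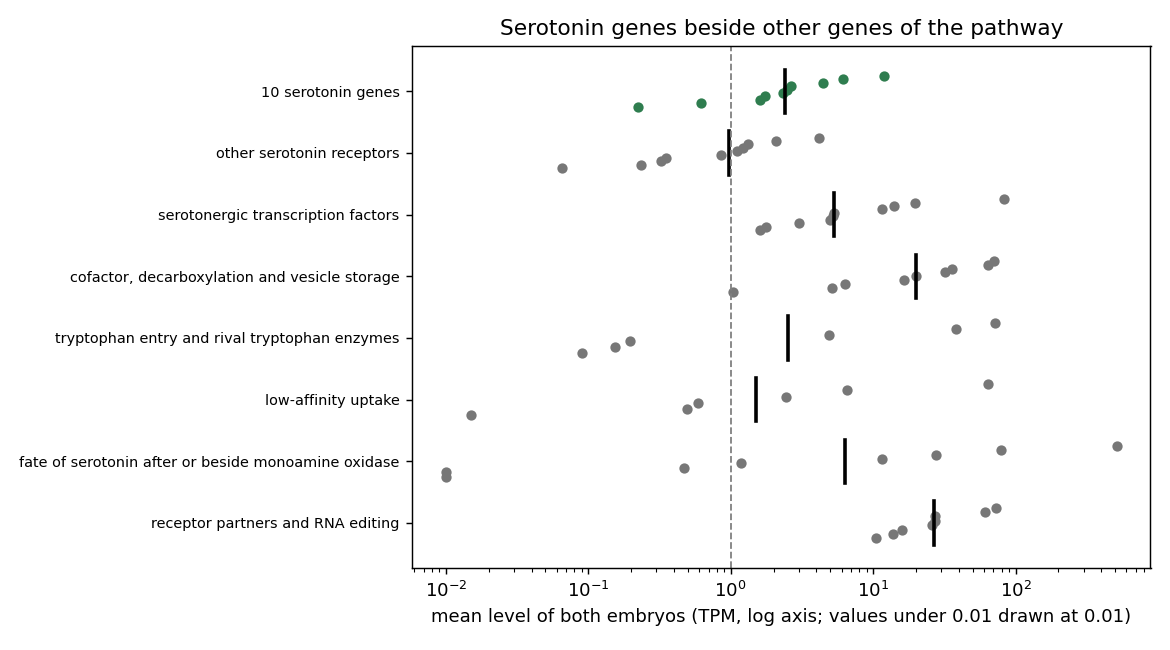
Mean level over both embryos, in TPM on a log axis, of the 10 serotonin genes (green, top) and of 7 lists of other genes of the pathway (grey); each point is a gene, the black bar is the median of the list and the dashed line is a TPM of 1. The medians run from 0.975 TPM for the other receptors to 26.6 TPM for receptor partners and RNA editing, with the 10 serotonin genes at 2.40 TPM.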

How the data were processed

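Libraries were made from 10 ng of RNA above 200 nt, isolated by the mirVana procedure and following a SmartSeq protocol, per the labels. The authors' gene and transcript tables were made on mm10 with GENCODE M4, per the deposited text records. No source used here names the aligner or the quantifier. The deposited expected counts are the authors' estimated reads, TPM values are the authors' per-million levels over all rows, spike-ins included, and FPKM values are the authors' own and entered only an alternative.

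Symbols came from GENCODE M21 on the same assembly and matched 42462 of 43346 Ensembl rows. Numeric rows (26248, with 6 and 14 counts) and 96 spike-ins stayed out of library sizes. Counts were rounded only to obtain the TMM factors of edgeR 4.0.16 and, as an alternative, size factors of DESeq2 1.42.0 (R 4.3.3). Ratios used unrounded counts with exact conditional binomial intervals, and levels exact Poisson intervals (scipy 1.17.1). They treat each count as an independent molecule, which PCR copies are not. They therefore cover counting error at most and can be too narrow even for that. The ratio step was tested on simulated Poisson counts that held no variation between animals. That test checks the calculation only and cannot show how the intervals cover real differences between embryos. Genes were named by rule: all 10 members, and from each pathway list the 3 highest, those at 0 counts and those past 2-fold with at least 100 summed counts (none); transcripts needed 10% of a gene's TPM. Some results that this rule or the marker lists would give are not reported here. Other genes and the pairs of genes compared were picked after their values were seen. The members and lists were chosen with earlier results of these data known. No gene was named for likeness of pattern, since 2 replicates of 1 condition give none.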

Additional observations from a re-analysis of the deposited data

How the results depend on the processing

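The number of the 10 genes detected was 8 at a TPM of 1 or 0.5, with the posterior mean TPM and in either embryo alone, and 9 with a minimum of 10 counts, where Htr3a joined. The number past 1.5-fold between the embryos was 0 of 8 with TMM, DESeq2 size factors, spike-in totals or a ratio of TPM, and 0 of 10 with TMM and no minimum count, and all 10 ratios kept their direction under each of these and with a prior count of 2; Htr3a alone passed 1.5-fold, on 47 counts, when scaled by spike-ins or as TPM. Rescaling TPM to nuclear genes moved the level of 5 of the 10 genes by over 1 SD, and the posterior mean moved 3 (Tph1, Fev and Maoa). Of 11 transcript shares, 8 moved by over 1 SD with the posterior mean. Of the 5 genes with counting intervals below 1, 2 kept this by spike-ins (Tph2 and Slc6a4) and 1 as a ratio of TPM (Tph2), an alternative chosen after seeing the data. The interval of Htr2c included 1 with TMM and lay above 1 by spike-ins. The cause was not tested. No paired analysis was possible because there is 1 group. Counts of 6 to 29 limit Tph1 and Htr3a. With 2 embryos an SD is itself imprecise.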

Other observations

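Organic cation transporter genes, which carry serotonin at low affinity, differed from the other uptake genes in how their counts fell between the embryos. Slc22a2 had 38 counts (0.98 TPM) in embryo 1 and 0 counts in embryo 2, where 3 counts amount to 0.0778 TPM, whereas Slc22a3 had 39 counts in embryo 1 and 38 in embryo 2. The sulfotransferase gene Sult1a1 had 43 counts and 2.06 TPM in embryo 1 and 7 counts and 0.30 TPM in embryo 2. The summed level of the 4 mesenchyme markers was 322 TPM in embryo 1 and 4.66 TPM in embryo 2, and its part in these values was not tested. These genes were named after their values were seen.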
